A study of Macaca mulatta with 95 samples.

Results

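The genes described here carry the fibroblast growth factor (FGF) signal and its ERK response: the ligands FGF4 and FGF17, the receptor FGFR2, the transcription factors ETV4 and ETV5, and the inhibitors DUSP6 and SPRED1. They were chosen by name, and all 7 were found among the 16049 genes of the deposited table. The series measured polyadenylated RNA in 95 single cells of rhesus macaque (Macaca mulatta) preimplantation embryos, and its title names naive and primed pluripotency as the question. Per the labels' protocols, oocytes of hormone-stimulated females were fertilised, the embryos were grown in HECM-9 medium with serum, and a membrane dye applied to the intact embryo told outer from inner cells before trypsin took it apart. No group carried a mutation or a treatment that another lacked.

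The groups were set by stage, position and the letter that opens each cell's title, which the labels do not explain. The 16-cell stage (16C, about day 3) gave 3 outer and 2 inner cells of letter B. The early morula (EM, about day 4) gave 5 outer and 5 inner cells of letter H, and the late morula (LM, about day 4.5) 5 outer and 5 inner cells of letter D. The early blastocyst (EB, about day 5) gave 6 outer and 5 inner cells of letter A, and also 3 inner G cells and 2 inner H cells. The middle blastocyst (MB, about day 5.5) gave 5 outer and 4 inner cells of letter B, and also 4 inner G cells and 4 inner H cells. All cells of the last 2 stages are labelled inner: 15 of letter G and 4 of letter H from the late blastocyst (LB, about day 6), and 9 of either letter from the hatched blastocyst (HB, about day 7). The labels do not say which animal or embryo a cell came from. Each group therefore counted as 1 sample, no test was possible, and every SD is the spread from cell to cell.

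FGF ligands bind receptor tyrosine kinases on the cell surface, which switch on RAS and, through it, the kinases RAF, MEK and ERK. Active ERK induces ETV4 and ETV5, factors of the ETS family, and also DUSP6, a phosphatase that removes the activating phosphates from ERK, while SPRED1 works with neurofibromin to hold RAS down. In the mouse blastocyst, FGF4 made by the epiblast acts through FGFR1 and FGFR2 on neighbouring cells, where ERK activity directs the choice of hypoblast (the primitive endoderm, which lines the cavity), and FGFR2 also serves the trophectoderm, the outer layer that forms the placenta.

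Levels were taken to be in RPKM, as the deposited values name no unit. RPKM is a read count divided by gene length in kilobases and by the megareads of the cell. It is meant for setting genes side by side, but how well it does so here was not tested. Depth read back from the values ran from 1.43 to 13.3 megareads per cell with a median of 7.61, and was lowest in the late morula, at medians of 2.82 in outer and 4.00 megareads in inner cells. One read was worth 0.0501 RPKM of FGF4, 0.0113 of FGFR2 and 0.0219 of DUSP6 in the median cell, so values of a few hundredths rest on single reads. Between 2358 and 7379 genes per cell reached 1 RPKM. Blastocyst groups of letters A and B had medians of 2998 to 3652.5 such genes and those of letters G and H of 3998 to 6192.5, so letter and gene number moved together. Labels and markers parted in places. For 9 cells titled late blastocyst, 5 of letter G and all 4 of letter H, another label field says hatched, so every value of late blastocyst H cells comes from cells of uncertain stage. The 13 cells of the late and hatched blastocyst named trophectoderm-like further on are labelled inner, yet had GATA2, a trophectoderm factor, at 140 to 936 RPKM and GATA4, a hypoblast factor, at 0.127 or less. The middle blastocyst cell B-03 is labelled outer, yet had GATA4 at 310 and SOX17, another hypoblast factor, at 599.9 RPKM. Of markers of other cells, none of the 6 cumulus genes in the table reached a mean of 5 RPKM in a group, and the 3 sperm genes were at 0 in every cell. Of the 4 blood cell genes in the table, 3 reached a mean of 5 RPKM in a group, and LYZ had 189.5 RPKM in its highest cell.

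FGF4, the epiblast ligand, was near 0 up to the morula and then high in a few cells of the blastocyst. Among the 25 cells of the 16-cell and morula stages it stayed at or below 1.05 RPKM, apart from 4.11 in the inner early morula cell H-04. In the early blastocyst of letter A the 6 outer cells had 0.230, 0.421, 1.84, 2.83, 93.8 and 635 RPKM, and the 5 inner cells 0.398, 0.423, 2.37, 76.9 and 548. Thus 2 cells on either side held nearly all of it, and the positions overlapped throughout. In the middle blastocyst of letter B the 5 outer cells had 0.0553 to 0.202 RPKM with a median of 0.0652, and the 4 inner cells 0.496, 43.0, 67.1 and 286. Every inner cell was above every outer one there.

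The inner cells of the other letters looked different. From the early and middle blastocyst, 13 G and H cells had 0 to 0.238 RPKM of FGF4 with a mean of 0.0310 ± 0.0700 (SD), and none of the 13 reached 1 RPKM, which allows a share of up to 24.7% (exact binomial interval, counting error only). The 9 inner A and B cells of these stages had a mean of 114 ± 186 and a median of 43.0 RPKM. In the late blastocyst the 4 cells of letter H had 0, 0, 65.7 and 418 RPKM, and the 15 of letter G a lowest and a median value of 0 and a highest of 28.8. In the hatched blastocyst the 9 cells of letter H ran from 0 through a median of 2.71 to 76.0 RPKM, and the 9 of letter G from 0 to 0.0468. At 5 RPKM or more FGF4 was present in 15 of the 70 blastocyst cells. Every group with such cells also held cells below 1 RPKM, and the other blastocyst groups were below 1 RPKM in every cell.

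FGF17, a ligand of the FGF8 subfamily, was found in 3 of 95 cells, all late blastocyst cells of letter G. Cell G-11 had 64.8, G-12 266 and G-17 439 RPKM, and the highest value in any other cell was 0.498, in the inner late morula cell D-04. The same 3 cells were at 141, 55.7 and 238 RPKM of GATA4 and at 259, 90.2 and 218 RPKM of SOX17, and all had less than 1 RPKM of the epiblast factor NANOG. None of the 3 had FGF4 above 0.

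**Figure D1:**
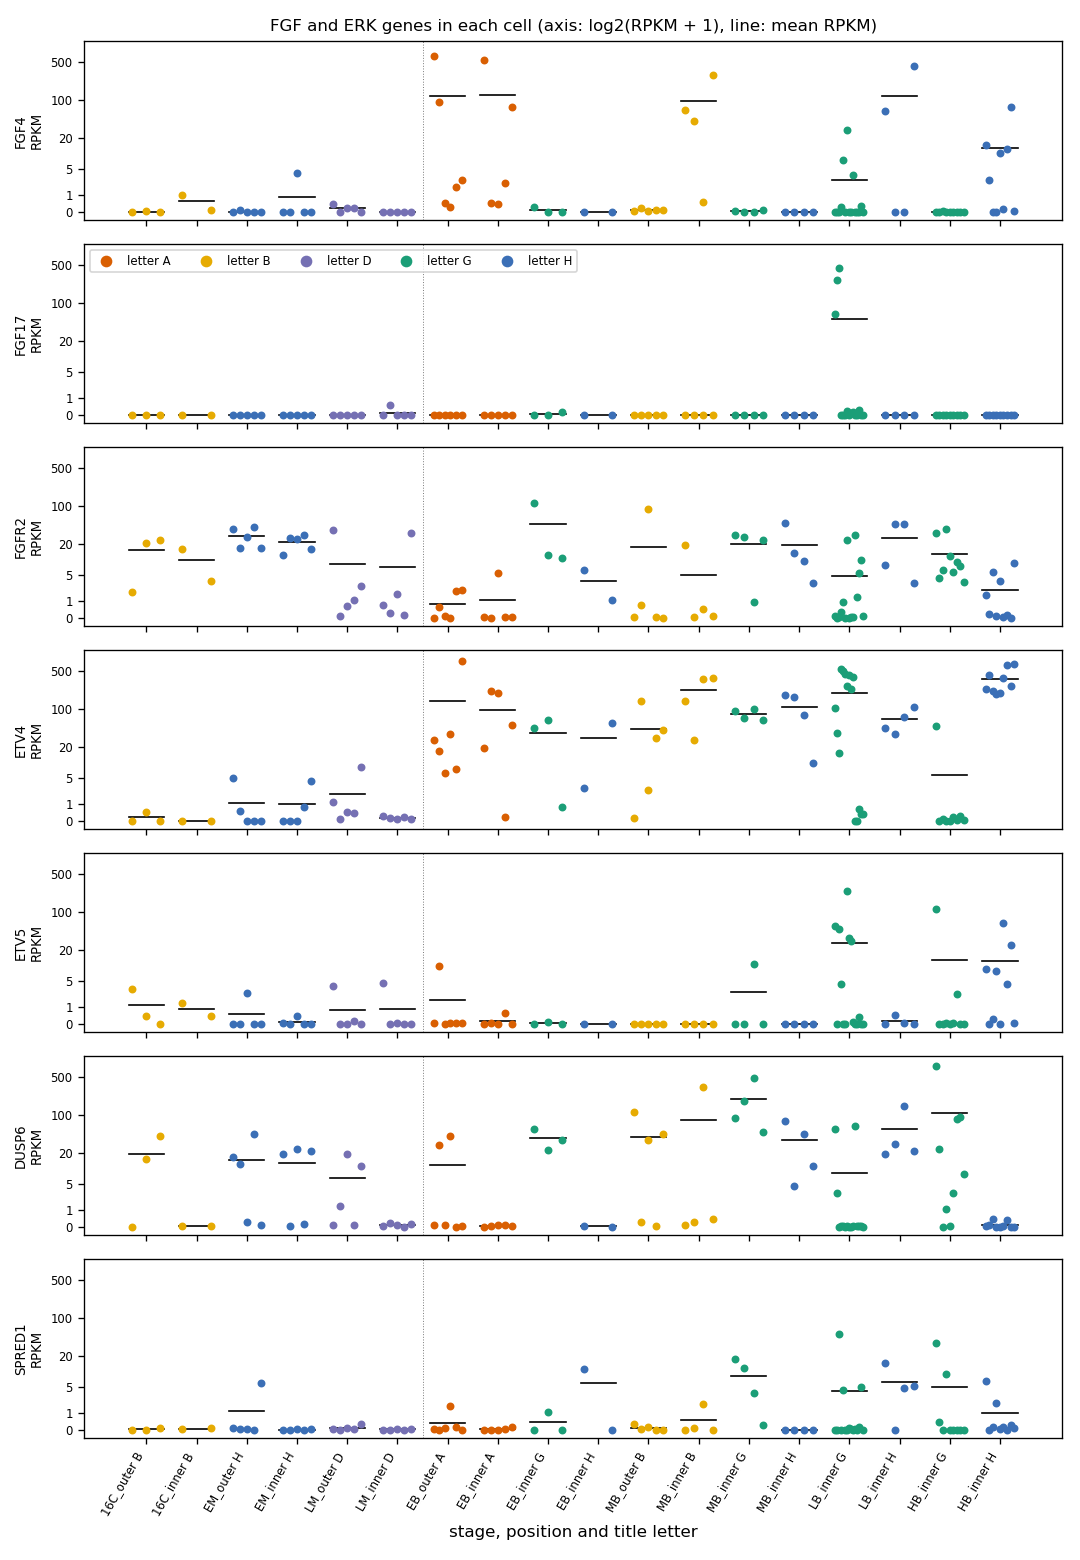
Level of each gene in every cell, in RPKM on a log2(RPKM + 1) axis, by stage, position and title letter, with a dot per cell coloured by letter and a line at the group's mean RPKM; the dotted line parts morula from blastocyst. FGF4 and ETV4 were near 0 left of the dotted line, FGF17 was found in 3 cells, and several groups of the right side held both cells near 0 and cells above 20 RPKM of DUSP6 or FGFR2.

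FGFR2, the receptor, ran nearly the other way. The 10 early morula cells all carried it, at 12.3 to 41.7 RPKM with a mean of 25.2 ± 9.65 (SD, 10 cells), and the 16-cell cells had 1.95, 21.0 and 24.2 (outer) and 3.55 and 16.6 RPKM (inner). In the late morula, outer cell D-01 had 37.1 and inner cell D-10 33.0 RPKM, while the other 8 cells had 2.80 or less. The early morula cells were all above those 8. Early blastocyst cells of letter A had at most 5.5 RPKM, and of the 9 middle blastocyst cells of letter B only outer cell B-03 (89.4) and inner cell B-02 (19.2 RPKM) exceeded 0.703. Cell B-03 is the outer cell with GATA4 and SOX17.

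Inner cells of the letters G and H, in contrast, carried FGFR2. In the early blastocyst the 3 cells of letter G had 10.8, 12.6 and 117 RPKM and the 2 of letter H 1.13 and 6.28. In the middle blastocyst, letter G had 0.919, 23.9, 27.5 and 29.4 RPKM and letter H 3.28, 9.58, 13.6 and 51.0. These letters overlapped in the middle but not in the early blastocyst. The late blastocyst cells of letter H had 3.31, 7.91, 48.0 and 48.5 RPKM, against a median of 0.0798 and a highest value of 29.5 in letter G. In the hatched blastocyst the order was the opposite: letter G ran from 3.39 through a median of 7.45 to 38.1 RPKM, and letter H from 0 through 0.185 to 8.71, and 6 of the 9 cells of letter H were below every cell of letter G.

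ETV4, which with ETV5 relays ERK activity to target genes, had the highest mean RPKM of the 7 in the blastocyst. Before it, 24 of 25 cells were below 5 RPKM and the highest, outer late morula cell D-10, had 8.45. In the blastocyst 52 of 70 cells had 5 RPKM or more, with a mean of 141 ± 183 RPKM. The early blastocyst cells of letter A ran from 6.17 to 762 outside and had 0.154, 19.7, 53.0, 198 and 218 RPKM inside. Middle blastocyst cells of letter B had 0.136, 2.64, 29.7, 41.7 and 144 RPKM outside and 27.9, 140, 352 and 371 inside, with the 2 highest inner cells above all outer ones. Inner cells of letter G had 0.776, 45.1 and 65.2 RPKM in the early and 65.5, 68.5, 95.1 and 101 in the middle blastocyst, with no overlap between the stages.

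The late and hatched stages split into cells with and without ETV4. In letter H the 4 late blastocyst cells had 35.5, 45.6, 73.8 and 113 RPKM and the 9 hatched cells 191 to 657 with a median of 267, so the stages did not overlap. In letter G, 10 late blastocyst cells had 15.4 to 534 RPKM and the other 5, the ones with 2 stage labels, at most 0.610. Of the 9 hatched cells of letter G, 8 had at most 0.211 RPKM and G-14 had 50.5.

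ETV5, the close relative of ETV4, was far rarer, at 1 RPKM or more in 20 of 95 cells against 58 for ETV4. Its highest values were 246 in late blastocyst cell G-23, 116 in hatched cell G-14, 64.0 in hatched cell H-10, and 55.9 and 49.1 RPKM in late blastocyst cells G-11 and G-17. All 12 blastocyst cells with 5 RPKM or more of ETV5 also had that much ETV4, and they were 23.1% of the 52 ETV4 cells. Middle blastocyst cells of letter B were at 0 in all 9.

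DUSP6, the ERK phosphatase, was present or absent cell by cell from the first stage on. The 16-cell cells had 0, 15.7 and 41.9 RPKM outside and 0.0219 and 0.0433 inside. Of the 10 early morula cells 6 had 1 RPKM or more, with a highest value of 45.4 and no split by position. In the late morula 3 outer cells had 1.37, 11.3 and 19.7 RPKM and all 5 inner cells 0.182 or less. In the early blastocyst of letter A, 2 outer cells had 28.8 and 42.7 RPKM and the inner cells 0.0869 or less. Outer cells of the middle blastocyst of letter B had 0.0427, 0.247, 36.0, 46.5 and 116 RPKM, and inner cells 0.102, 0.212, 0.38 and, in B-05, 323.

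Inner cells of letter G carried much DUSP6, at 22.8, 36.2 and 57.5 RPKM in the early and 48.9, 91.0, 181 and 467 in the middle blastocyst. Those 4 middle blastocyst cells also had GATA4, at 103 to 141 RPKM. In letter H the 2 early blastocyst cells had 0 and 0.0319, the 4 of the middle blastocyst 4.51, 11.6, 46.1 and 78.2, the 4 of the late blastocyst 19.0, 21.9, 30.1 and 151, and the 9 hatched cells at most 0.408 RPKM. So in letter H DUSP6 was near 0 in the 2 early blastocyst cells, present in every cell for 2 stages and near 0 in the hatched cells. Early morula cells, also of letter H, had up to 45.4 RPKM, and at hatching stage and cell type cannot be told apart. Late blastocyst cells of letter G were at or below 0.0561 RPKM in 12 of 15, with 3.02 in G-12, 57.4 in G-11 and 63.9 in G-03. Hatched cells of letter G ran from 0 through a median of 7.82 to 770 RPKM in G-14.

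SPRED1, the RAS inhibitor, was low throughout, at 1 RPKM or more in 18 of 95 cells. Before the blastocyst only outer early morula cell H-06 had it, at 5.96 RPKM. Middle blastocyst cells of letter G had 0.239, 3.68, 12.0 and 17.7 RPKM and those of letter H were all at 0. The late blastocyst cells of letter H had 0, 4.68, 5.15 and 15.0 RPKM, and the highest cells of all were late blastocyst cell G-17 (52.0) and hatched cell G-14 (35.1).

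Group means were then compared as the log2 ratio of mean RPKM after adding 1 to each, a scale that understates the change of low genes. Genes were measured where the mean of at least 1 of the groups was 5 RPKM or more, and the call higher or lower asked for a difference of 2-fold or more. Where groups did not overlap, the share of all genes without overlap is not given here. With so few cells per group, a lack of overlap only describes the cells. These groups are small: in 71 of the 90 calls, leaving out 1 cell moved the difference by over 1.5-fold, and the cell that moved it most is named where a call or its direction was lost. Outer cells were first set against inner cells of the same stage and letter, which asks whether position in the embryo parts the pathway. DUSP6 was higher outside at 3 of 5 stages by the mean, and by the median over cells at the 16-cell stage alone of these 3. At the 16-cell stage it had 19.2 ± 21.2 RPKM outside and 0.0326 ± 0.0152 inside, a log2 difference of 4.29, and was the 1 of 2 measured genes that was higher, where 24.0% of the 5194 measured genes were higher and 20.6% lower. In the early morula 0 of 2 were higher or lower, where 16.1% of all measured genes were higher and 9.12% lower. DUSP6 was again the 1 of 2 in the late morula (log2 difference 2.79, and 1.95 at a mean below 5 RPKM without outer cell D-05, beside 31.2% higher and 26.9% lower) and the 1 of 3 in the early blastocyst (3.64, beside 29.0% higher and 32.7% lower). The groups overlapped in each of these 3 stages, and 4 of the 6 outer early blastocyst cells had 0.0956 RPKM or less. The median over cells gave 0.096 there and 1.13, below 5 RPKM on both sides, in the late morula.

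The middle blastocyst of letter B was the one stage where both a ligand and a target were lower outside. FGF4 had 0.0915 ± 0.0622 RPKM outside and 99.1 ± 127 inside, a log2 difference of -6.52 with no overlap, and ETV4 had 43.6 ± 58.8 outside and 223 ± 167 inside, a difference of -2.33. DUSP6 lay at the edge, at -1.0, and made 3 lower genes of 4 measured, and FGFR2, at 1.68, was the 1 that was higher, where 36.3% of all measured genes were higher and 24.7% lower. Both of the last values rested on single cells. Without inner cell B-05 the log2 difference of DUSP6 was 5.05, and without outer cell B-03 that of FGFR2 was -2.30. FGFR4, a receptor of the same family, had 137 ± 91.2 RPKM outside and 0.433 ± 0.498 inside at that stage.

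Stages were compared among inner cells of 1 letter, because stage and letter overlap. From the early morula to the early blastocyst of letter H, FGFR2 was lower (log2 difference -2.29) and DUSP6 was lower (-3.80), while ETV4 (3.91) and SPRED1 (2.76) were higher, so 2 of 4 went each way. FGFR2 did not overlap. DUSP6 was near 0 in 2 of the 5 early morula cells as well, at 0.0542 and 0.115 RPKM, a few reads from the early blastocyst cells. Of all measured genes 21.4% were higher and 41.0% lower. ETV4 was 0.98 without early blastocyst cell H-05, and SPRED1 was -0.016 without cell H-03. From the early to the middle blastocyst DUSP6 (5.15, no overlap), FGFR2 (2.11) and ETV4 (1.88) were higher and SPRED1 went to 0 in every cell, 3 higher and 1 lower of 4, beside 35.8% and 27.6% of all genes. Without early blastocyst cell H-03 ETV4 was 0.98 higher and SPRED1 was at 0 in all remaining cells.

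From the middle to the late blastocyst of letter H, FGF4 and SPRED1 went from 0 in all 4 cells to means of 121 ± 200 and 6.22 ± 6.33 RPKM, 2 higher and 0 lower of 5 measured, where 34.8% of all measured genes were higher and 20.7% lower. Without late blastocyst cell H-03 the mean of SPRED1 was below 5 RPKM. In the same step 7 of 8 measured hypoblast markers and 6 of 7 epiblast markers were higher, and their part in these results was not tested. At hatching ETV4 was higher, at a log2 difference of 2.38 with no overlap, and so was ETV5, at 3.57. DUSP6 was lower (-5.68, no overlap), as were FGFR2 (-3.12), FGF4 (-3.12) and SPRED1 (-1.83), so 2 of 6 were higher and 4 lower, where 21.2% of all genes were higher and 19.7% lower. The FGF4 difference was -0.71 without late blastocyst cell H-15. That of SPRED1 was -1.07 without late blastocyst cell H-03, with neither mean at 5 RPKM. With the median over cells SPRED1 (-2.42) and ETV5 (2.37) had no level of 5 RPKM on either side and were not called. The 4 late cells, whose stage is labelled in 2 ways, were all in cluster 2 and the 9 hatched cells all epiblast-like, in the clusters described further on. Hypoblast markers were lower in 7 of 8 measured and epiblast markers higher in 4 of 6, so stage and cell type cannot be told apart in this step.

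In letter G the sequence was another one. From the early to the middle blastocyst ETV4 was higher (1.13, no overlap, and 0.57 without early cell G-18), with DUSP6 (2.31) and SPRED1 (2.77), and FGFR2 was lower (-1.16, but 0.75 higher without early cell G-11), 3 and 1 of 4, beside 32.4% of all genes higher and 24.9% lower. Hypoblast markers were higher in 7 of 11 measured and epiblast markers lower in 4 of 6 in this step, and their part was not tested. From the middle to the late blastocyst FGF17 went from 0 in all 4 cells to a mean of 51.4 ± 128 RPKM, ETV5 (2.95, but 0.097 from the median over cells) and ETV4 (1.24, but -1.18 from the mean of log2 values) were higher, and DUSP6 (-4.41) and FGFR2 (-1.89) were lower, 3 and 2 of 6, beside 26.0% and 26.8%. Between these 2 stages epiblast markers were higher in 6 of 6 measured and trophectoderm markers in 9 of 13. Hypoblast markers were higher in 2 and lower in 3 of 11, and the part of these lineage differences was not tested. At hatching FGFR2 (1.29, and 0.94 without hatched cell G-06) and DUSP6 (3.57) were higher. ETV4 (-4.88) and ETV5 (-1.03) were lower and FGF17 was at 0 in all 9 cells, 2 and 3 of 5, beside 26.6% and 16.2%. In that last step 7 of the 15 late cells and none of the 9 hatched cells were epiblast-like by their other genes, and the part of this in the result was not tested. Hatched cell G-14 moved 3 of its values: without it the log2 difference was -7.53 for ETV4, -4.47 for ETV5 and 1.61 for DUSP6. Without late cell G-23, ETV5 was at 0.083.

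Letter B allowed only the long step from the 16-cell stage to the middle blastocyst. Inside, ETV4 went from 0 in both cells to 223 ± 167 RPKM, FGF4 was higher at a log2 difference of 5.99, and DUSP6 at 6.31, 3 higher and 0 lower of 4, beside 25.8% and 46.3% of all genes. DUSP6 rested on B-05 and was 0.25 without it. Outside, ETV4 (5.27) and DUSP6 (1.01) were higher, 2 and 0 of 3, beside 29.0% and 40.3%. DUSP6 was 0.10 without outer cell B-01.

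**Figure D2:**
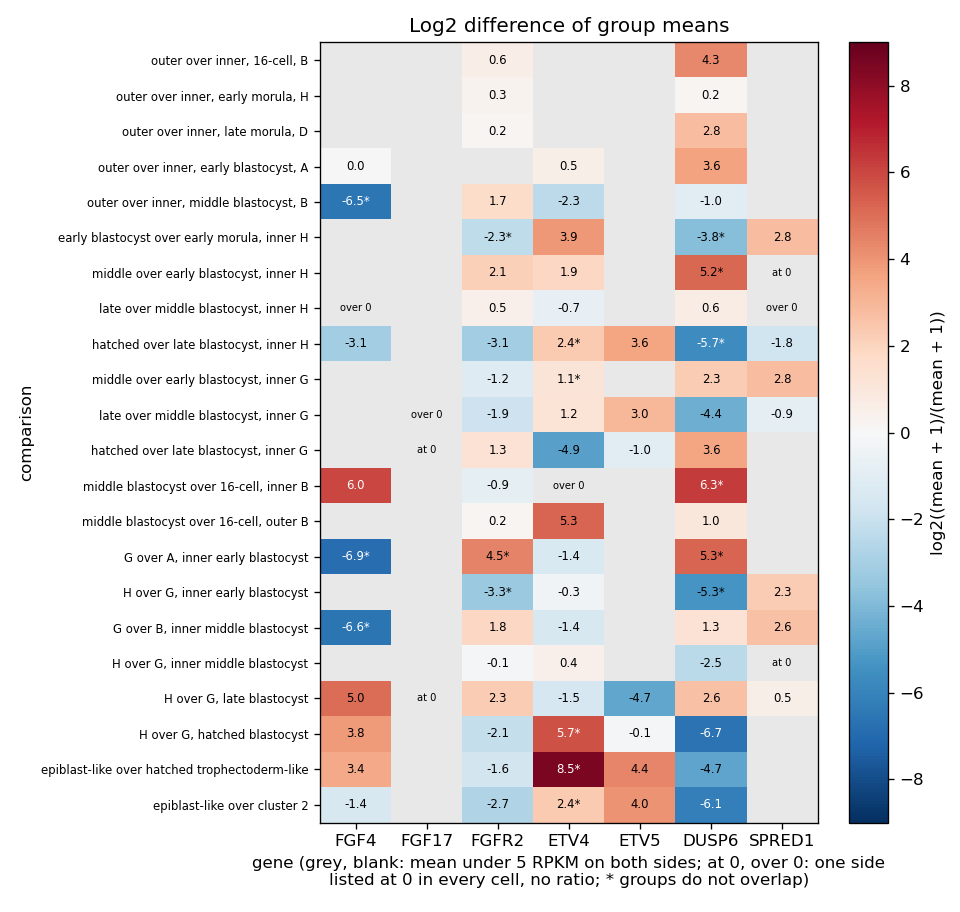
Log2 ratio of group means (RPKM + 1) for the 7 genes in rows of comparisons, red where the first-named group was higher and blue where it was lower. DUSP6 is red in the 16-cell, late morula and early blastocyst rows of outer over inner cells and blue in the rows of epiblast-like cells, where ETV4 is red.

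Letters were compared within a stage and position. In the inner early blastocyst, letter G over letter A had FGFR2 (log2 difference 4.49) and DUSP6 (5.26) higher and FGF4 (-6.88) lower, all without overlap, and ETV4 lower (-1.37, and -0.81 without G-18), so 2 of 4 went each way, where 44.4% of all measured genes were higher and 30.2% lower. Letter H over G had FGFR2 (-3.35) and DUSP6 (-5.29) lower without overlap and SPRED1 higher (2.31, and -0.47 without H-03), 1 and 2 of 4, beside 26.9% and 38.2%. In the inner middle blastocyst, G over B had FGF4 lower (-6.59, no overlap) and ETV4 lower (-1.42), with FGFR2 (1.85), DUSP6 (1.27) and SPRED1 (2.65) higher, 3 and 2 of 5, beside 55.1% and 27.0%, where the median log2 difference of all measured genes was itself 1.54. That DUSP6 value was 0.40 without G-04, 7.33 without B-05 and -0.86 with size factors over genes found in 50% of the cells. H over G had DUSP6 (-2.46) lower and SPRED1 at 0 in every H cell, 0 and 2 of 4, beside 25.6% and 34.2%.

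In the late blastocyst H over G had FGF4 (5.04), FGFR2 (2.28) and DUSP6 (2.60) higher, ETV4 (-1.53, but 0.77 from the mean of log2 values) and ETV5 (-4.69, but -0.092 from the median over cells) lower and FGF17 at 0, 3 and 3 of 7, beside 27.5% and 22.1%. FGF4 was 2.63 without H-15. Hatched cells of H over G had FGF4 (3.80) and ETV4 (5.73, no overlap) higher and FGFR2 (-2.13) and DUSP6 (-6.65) lower, 2 and 2 of 5, beside 20.9% and 24.1%. ETV4 was 8.38 higher without G-14. That comparison set 9 epiblast-like cells of H against 8 trophectoderm-like cells and G-14: trophectoderm markers were lower in 12 of 14, hypoblast markers in 12 of 12, and epiblast markers higher in 5 of 6. Lineage markers differed between letters earlier too, with hypoblast markers lower in 10 of 10 in middle blastocyst H over G and higher in 8 of 10 in G over B. What a letter stands for is not given, so letter, embryo, batch and cell type cannot be told apart.

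The 70 blastocyst cells were next grouped by their other genes, with the 7 genes and all other FGF and ERK genes left out of the clustering. Of 5 clusters, cluster 1 held the 20 A and B cells, all of the early or middle blastocyst. Cluster 2 held 17 cells, namely the 13 G and H cells of those stages with the 4 H cells of the late blastocyst. Neither was named. The epiblast-like cluster held 7 late cells of letter G and all 9 hatched cells of letter H, with 4 of 8 epiblast markers above the other cells, none of them among its 10 leading genes, which were headed by GLT8D2, UCHL1 and FEZ1 and included the mesoderm factor T. NANOG ran from 0.176 to 1087 RPKM with a median of 548. The cell at 0.176, G-23, also had SOX2 at 0, and it held the cluster's highest ETV5 (246) and FGFR2 (23.8) and 28.8 RPKM of FGF4. The trophectoderm-like cluster held 8 hatched cells of letter G, with 9 of 14 markers. A 9-cell cluster met the hypoblast rule with 10 of 13 markers but also had 6 of 14 trophectoderm markers. Cutting into 6 clusters parted it into 4 hypoblast-like cells (G-11, G-12 and G-17 of the late and G-14 of the hatched blastocyst, 12 of 13 markers) and 5 late trophectoderm-like cells (9 of 14 markers), and left the other clusters as they were. FGF17 was among the 10 leading genes of the hypoblast-like cluster.

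ETV4 and DUSP6 parted in the epiblast-like cells. All 16 had ETV4 at 191 to 657 RPKM, with a mean of 373 ± 152, and DUSP6 at 0.408 or less, with a mean of 0.0645 ± 0.124. Of the 17 cells of cluster 2, 16 had 1 RPKM or more of ETV4 and 15 of DUSP6, with means of 71.3 ± 51.2 and 74.5 ± 113. The 4 hypoblast-like cells had 15.4 to 106 RPKM of ETV4, and DUSP6 was at 0 in G-17, 3.02 in G-12, 57.4 in G-11 and 770 in G-14. The 8 hatched trophectoderm-like cells had 0.0646 ± 0.0812 RPKM of ETV4 and 27.3 ± 40.2 of DUSP6, and the 5 late ones 0.257 ± 0.260 and 12.8 ± 28.5. DUSP6 ran from 0 to 94.8 RPKM in the hatched ones. The late mean came from G-03 with 63.9, and the other late ones had 0.0561 or less, as low as the epiblast-like cells. In ETV4 the epiblast-like cells lay above every cell of cluster 2, of the hypoblast-like and of both trophectoderm-like clusters, and the hypoblast-like cells above every trophectoderm-like cell. Cluster 1, at 0.136 to 762 RPKM of ETV4, overlapped them all, and 14 of its 20 cells were below 1 RPKM of DUSP6.

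**Figure D3:**
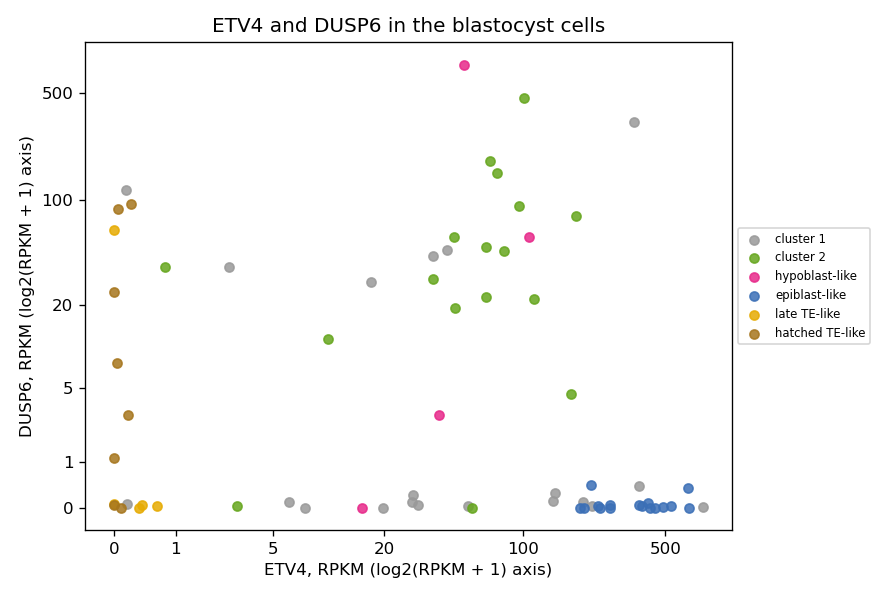
DUSP6 plotted against ETV4 in the 70 blastocyst cells, both in RPKM on log2(RPKM + 1) axes, a dot per cell coloured by cluster (6 clusters; TE, trophectoderm). The 16 epiblast-like cells lie along the bottom right, with ETV4 at 191 RPKM or more and DUSP6 at 0.408 or less, beside cells of cluster 1, and the trophectoderm-like cells lie along the left edge.

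The receptor and the ligands had other orders. FGFR2 had means of 24.4 ± 29.3 RPKM in cluster 2, 10.7 ± 11.4 in the hatched and 9.27 ± 12.0 in the late trophectoderm-like cells, 8.11 ± 16.2 in the hypoblast-like, 6.02 ± 20.1 in cluster 1 and 2.82 ± 6.14 in the epiblast-like cells, and neighbours in this order overlapped. All 8 hatched trophectoderm-like cells had 3.39 RPKM or more, while 11 of 16 epiblast-like cells were below 1. The hypoblast-like mean came from G-14 (32.4 RPKM), and the 3 late cells had less than 1. FGF4 had 88.0 ± 185 RPKM in cluster 1, 28.5 ± 102 in cluster 2, 9.82 ± 19.4 in the epiblast-like cells, 0 in all 4 hypoblast-like cells and at most 0.255 in the 13 trophectoderm-like cells.

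Epiblast-like over hatched trophectoderm-like cells had ETV4 (log2 difference 8.46, no overlap), ETV5 (4.40) and FGF4 (3.43) higher and FGFR2 (-1.62) and DUSP6 (-4.73) lower, 3 and 2 of 5. With the median over cells FGF4 (1.31) and ETV5 (2.39) had no level of 5 RPKM and were not called, and with 4 clusters ETV5 was 0.957. Here 19.9% of the 7260 measured genes were higher and 24.6% lower. Over cluster 2 they had ETV4 (2.37, no overlap) and ETV5 (4.04) higher and FGFR2 (-2.73), DUSP6 (-6.15) and FGF4 (-1.45) lower, 2 and 3 of 5, beside 16.1% and 18.5%. The FGF4 value rested on late blastocyst cell H-15, and was 1.08 without it. The hypoblast-like over the epiblast-like cells had FGF17 (7.56), DUSP6 (7.62), SPRED1 (3.62), FGFR2 (1.25) and ETV5 (1.03) higher and ETV4 lower (-2.81, no overlap), with FGF4 at 0, 5 and 2 of 7, beside 26.1% and 35.3%. Without hatched cell G-14, DUSP6 was 4.31, ETV5 0.39 and FGFR2 -1.89.

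Against the 13 trophectoderm-like cells the 4 hypoblast-like cells had ETV4 (5.55, no overlap), FGF17 (7.57), ETV5 (5.54), SPRED1 (3.42) and DUSP6 (3.20) higher, 5 and 0 of 6, beside 24.4% and 35.9%. The DUSP6 value was -0.10 without hatched cell G-14. Within the epiblast-like cells, the 7 late over the 9 hatched ones had ETV5 higher (1.79) and FGF4 lower (-1.05), 1 and 1 of 3, beside 14.1% and 31.4%. Both rested on 1 cell: ETV5 was -0.10 without G-23 and FGF4 0.14 without H-14. ETV4, at 397 ± 109 and 354 ± 184 RPKM, differed by 0.16.

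**Figure D4:**
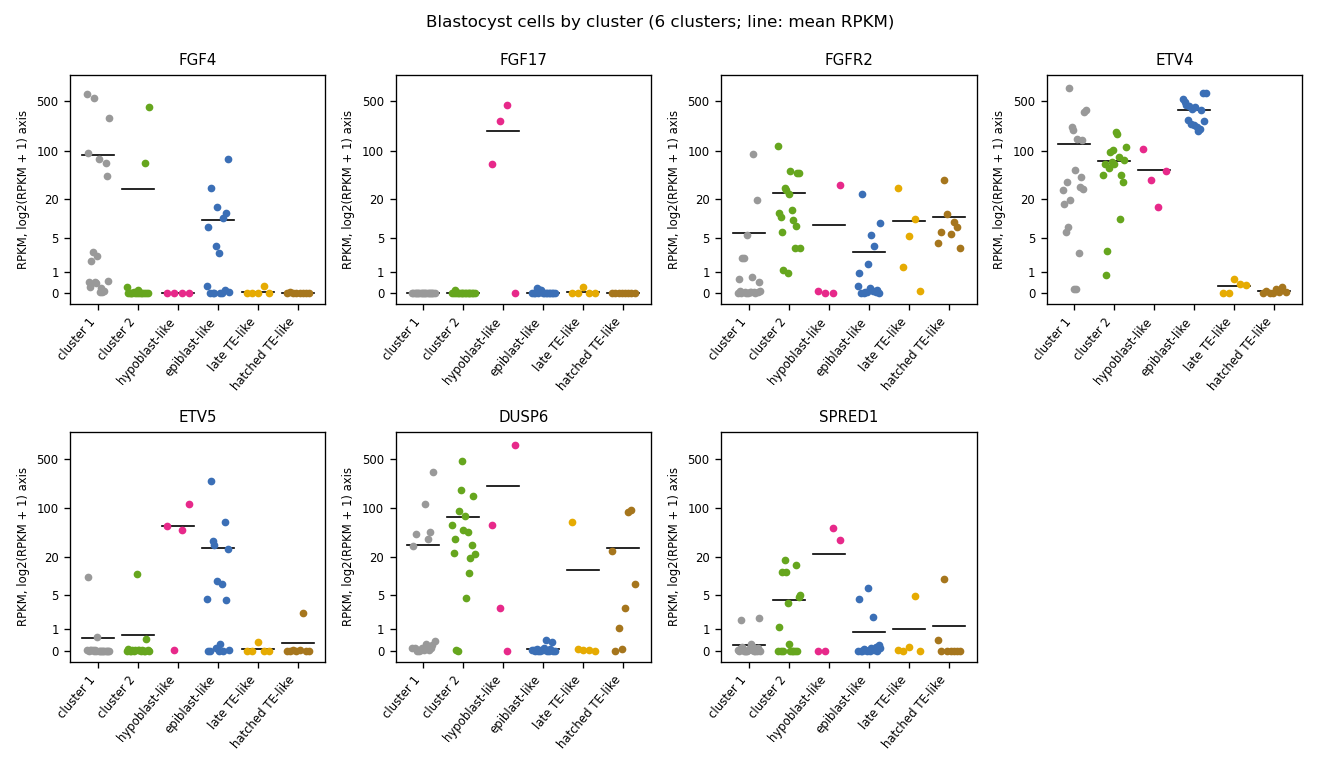
Each gene in the 70 blastocyst cells by cluster (6 clusters; TE, trophectoderm), in RPKM on a log2(RPKM + 1) axis, a dot per cell and a line at the mean RPKM. ETV4 is high in all 16 epiblast-like cells and near 0 in all 13 trophectoderm-like cells, and FGF17 is found in 3 of the 4 hypoblast-like cells.

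Taken cell by cell at 5 RPKM or more, all 15 FGF4 cells of the blastocyst also had ETV4, and they were 28.8% of the 52 ETV4 cells. Over all 70 blastocyst cells, 52 had ETV4 at that level, 38 NANOG, 29 FGFR2, 27 DUSP6, 26 GATA2 and 18 GATA4. Of the 15 FGF4 cells, 14 had NANOG at that level, 36.8% of the 38 NANOG cells, and 3 had DUSP6, 11.1% of the 27 DUSP6 cells. GATA4 was at that level in 3 of the 15 and GATA2 in 2. FGFR2 and DUSP6 met in 16 cells, 55.2% of the 29 FGFR2 cells and 59.3% of the DUSP6 cells. ETV4 and DUSP6 met in 19 cells, 36.5% of the former and 70.4% of the latter. Cells share letter and stage, so these shares are descriptions.

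Most other genes of the FGF ligand family were low. Of 19 further genes of this family in the table, 5 reached a mean of 5 RPKM in a group. FGF23 came near it, at 4.64 in the hatched cells of letter H, with 26.8 RPKM in cell H-10. FGF13, an intracellular member of the family, had 67.1 ± 74.0 RPKM in the epiblast-like cells, 27.7 ± 55.5 in the hypoblast-like and at most 2.04 on average elsewhere. Its hypoblast-like mean was 0 without the highest cell. FGF19, an endocrine ligand, had 11.1 ± 38.3 in the epiblast-like cells, mostly from cell G-20 with 153. FGF8 had its highest group mean, 36.0, in the inner middle blastocyst of letter B, mostly from cell B-02 with 142, and only 4 cells of all reached 1 RPKM. FGF1 had 9.97 ± 20.5 in the hatched trophectoderm-like cells, with 56.8 in cell G-15, and FGF12 reached 80.6 in outer early blastocyst cell A-10.

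Of 9 other receptors and co-receptors 7 reached that level. FGFR1, the broadly used receptor, was at 1 RPKM or more in 90 of 95 cells. It had 95.0 ± 38.0 RPKM in the epiblast-like, 76.9 ± 37.4 in the hatched and 135 ± 162 in the late trophectoderm-like cells. Its hypoblast-like mean was 197 ± 230 with G-14 (539 RPKM) and 83.1 without that cell. GPC3, a heparan sulfate proteoglycan of the cell surface, had 304 ± 397 RPKM in the hypoblast-like cells, or 106 without G-14 (899 RPKM). It was near 0 in both trophectoderm-like clusters. Of the RAS to ERK cascade 17 of 18 genes reached 5 RPKM. Its MEK gene MAP2K1 had 137 ± 46.1 in the hatched and 159 ± 101 in the late trophectoderm-like cells against 24.8 ± 21.3 in the epiblast-like. In the hypoblast-like cells MAP2K1 had 110 ± 86.3, or 73.7 without the highest cell. The other MEK gene, MAP2K2, did not share this order, with 42.6 ± 21.4 in the hatched and 65.8 ± 65.5 in the late trophectoderm-like cells. It had 62.0 ± 50.8 in the epiblast-like.

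Among 26 further targets and inhibitors, 23 reached 5 RPKM, and some were higher and others lower in the epiblast-like cells. SPRY2, an inhibitor of receptor signalling, had 92.8 ± 92.4 RPKM there against 1.2 ± 3.38 in the hatched trophectoderm-like cells, and ETV1, the third factor of the ETV4 family, 9.19 ± 13.0 against 0 in all 8. DUSP4, a nuclear phosphatase of ERK, had 11.0 ± 16.9 against 0.0173 ± 0.0207, but also 24.5 ± 39.8 in cluster 2 and 11.0 ± 12.8 in the hypoblast-like cells. Genes of the same families went the other way. In epiblast-like against hatched trophectoderm-like cells, SPRY1 had 0.0319 ± 0.0757 against 8.10 ± 22.7 RPKM, and DUSP5 54.1 ± 108 against 151 ± 76.8. Over the list, 4 of 18 measured were higher and 6 lower, where 19.9% of all measured genes were higher and 24.6% lower, with a median log2 difference of -0.24 beside -0.16 for all measured genes. Cascade genes had 3 higher and 2 lower of 13, receptors 2 and 0 of 4, and ligands 2 and 1 of 3. The hypoblast-like over the epiblast-like cells had 6 higher and 5 lower of 17 targets, at a median of 0.22 beside -0.21, and 4 and 3 of 13 cascade genes, where 26.1% of all measured genes were higher and 35.3% lower.

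**Figure D5:**
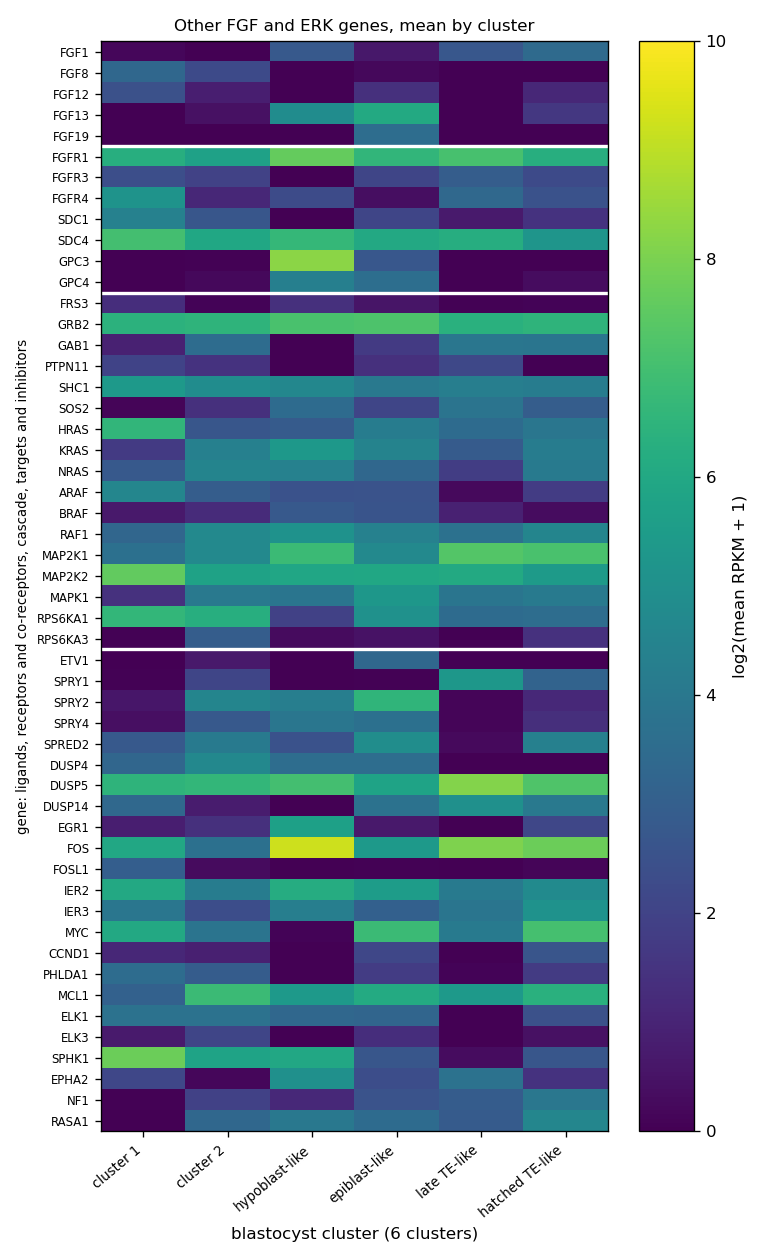
Mean level of the other FGF and ERK genes that reached 5 RPKM in a group, as log2(mean RPKM + 1), by blastocyst cluster (6 clusters; TE, trophectoderm), with white lines between ligands, receptors and co-receptors, the cascade, and targets and inhibitors. FGF13 and SPRY2 are brightest in the epiblast-like column and GPC3 in the hypoblast-like column.

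Over the 18 groups, the gene whose mean log2 level was most like, among 9976 genes, was DLX4 for FGF4 (Pearson r 0.88), TSPO2 for FGF17 (above 0.99), LTV1 for FGFR2 (0.92), IFITM3 for ETV4 (0.91), ENPP1 for ETV5 (0.91) and YAF2 for SPRED1 (0.90). The next were MGLL and IQSEC3 for FGF4, ZNF540 and HSPB2 for FGF17, CERS2 and DBI for FGFR2, IGFBP6 and ANPEP for ETV4, E2F3 and FAM19A4 for ETV5, and ARMCX1 for SPRED1. Among the genes most like DUSP6 were KIAA1958 (0.82) and MKI67 (0.80). FGF17 was above 1 RPKM in cells of 1 group. Among the 7 themselves, FGFR2 and DUSP6 (0.66) and FGF17 and ETV5 (0.58) were the most alike, followed by FGF4 and ETV4 (0.57), and FGF4 and FGFR2 the least (-0.45). Groups share letters and depth, so these are descriptions without a test.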

How the data were processed

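The authors deposited 1 table of 16049 genes by 95 cells without a stated unit. It was taken to hold RPKM made by the authors, because low values step by gene and by cell and each cell sums to between 557059 and 1000590. The tools DESeq2, HTSeq, FastQC and TopHat2 (2.1.0) are listed, per the submitters' processing notes, without role or order. The genome build and annotation are not given in the sources used here, so no sequence or position is printed. Per the labels' protocols, the cDNA got a poly(A) tail and PCR amplification, and no molecular identifiers are mentioned, so intervals cover counting error only. All 95 columns were matched to a cell by title.

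Relative depth came from how low values step: the most frequent ratio of low values between 2 cells gives their relative depth. For 11333 genes (70.6%) the values were then whole reads within a tolerance of 0.05, and reads recovered are those of these genes alone. The scripts were tested on simulated data.

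Group means of RPKM were compared as log2 of the ratio after adding 1, with a gene measured at 5 RPKM and called at 2-fold. Intervals of shares are exact binomial (Clopper-Pearson, 95%). No test across genes or cells was made. Clustering used log2(RPKM + 1) of the 1000 most variable of 7914 genes with at least 10 RPKM in at least 5 of the 70 blastocyst cells, 10 principal components and Ward linkage into 5 clusters. A cluster was named where at least 50% of a lineage's markers, and 3 or more, lay 1 log2 unit or more above the other cells; this naming rule was set after the table had been seen.

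The genes named are the 7 members, up to 3 genes per pathway list and direction with the largest difference past 2-fold, the 3 genes most like each member over the groups (2 of these genes are not reported here), and the lineage markers NANOG, SOX2, GATA4, SOX17, GATA2, GATA3 and KRT18; pathway genes named by level outside this rule were chosen after their values were seen. The 7 genes and all lists were chosen with earlier results of these data known. Python 3.11.15, numpy 2.4.6, pandas 2.3.3, scipy 1.17.1 and matplotlib 3.10.9 were used.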

Additional observations from a re-analysis of the deposited data

Results flagged for a closer look

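In groups of 4 to 10 cells, 1 cell stood far from all others in 7 of the 37 groups and genes examined. Cells are not replicates and many values are either near 0 or high, so this count cannot be set against a chance rate. FGFR2 had 33.0 RPKM in inner late morula cell D-10, with the nearest cell at 1.69, and 89.4 in outer middle blastocyst cell B-03, with the nearest at 0.703. Inner middle blastocyst cell G-04 had the low value, 0.919 RPKM of FGFR2 with the nearest at 23.9, and in the same cell DUSP6 was at 467. ETV4 had 762 RPKM in outer early blastocyst cell A-10, with the nearest at 35.5. Hatched cell G-14, the 1 hatched cell with hypoblast factors (GATA4 at 242 RPKM), had 50.5 RPKM of ETV4 with the nearest at 0.211, and 116 of ETV5 with the nearest at 2.38. DUSP6 had 323 RPKM in inner middle blastocyst cell B-05, with the nearest at 0.38. That cell had SOX17 at 176 RPKM and FGF4 at 0.496, the lowest of its group. None of the 91 pairs of contrasts examined moved one way in every cell of one group and the opposite way in every cell of the other.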

How the results depend on the processing

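The 109 measured differences of the 7 genes, 90 of them at 2-fold or more, were recomputed under each alternative. Of the 109, the side of the 2-fold line and the direction held in 107 with 0.1 RPKM added and 101 with 5, in 102 with depth-weighted means, in 97 when 10 RPKM was asked for, in 92 with the mean of log2 values, in 72 with the median over cells, and in 89 and 105 with size factors over genes above 0 in 50% of cells and in all cells. Size factors shifted the median of all genes by up to -2.39. Between the 5 blastocyst clusters 10 differences were called, and 6 with the median over cells, where FGF4 and ETV5 were lost over the hatched trophectoderm-like cells (1.31 and 2.39) and ETV5 over cluster 2 (2.38). The direction turned with the mean of log2 values for DUSP6 outside over inside in the middle blastocyst (1.30), ETV4 late over middle in letter G (-1.18), ETV4 H over G in the late blastocyst (0.77) and FGF4 epiblast-like over cluster 2 (0.99). It turned with the median over cells for FGFR2 (-0.26) and DUSP6 (4.83) outside over inside in the middle blastocyst, FGFR2 middle over early in letter G (0.97), FGF4 epiblast-like over cluster 2 (1.31) and FGFR2 hypoblast-like over epiblast-like (-0.15). It turned with size factors over 50% of cells for DUSP6 G over B (-0.86), and without the 9 cells of 2 stage labels for FGF4 epiblast-like over cluster 2 (3.39). The cause was not tested. Leaving out 1 cell at a time turned 11 of 109, whose ranges were -1.92 to 5.05 (DUSP6) and -2.30 to 4.00 (FGFR2) outside over inside in the middle blastocyst, -0.016 to 3.65 (SPRED1 early blastocyst over early morula), -1.62 to 0.75 (FGFR2 middle over early, G), -4.47 to 0.083 (ETV5 hatched over late, G), -0.47 to 3.20 (SPRED1 H over G), -2.20 to 1.08 (FGF4 epiblast-like over cluster 2), -1.89 to 1.91 (FGFR2 hypoblast-like over epiblast-like), -0.10 to 3.65 (DUSP6 hypoblast-like over trophectoderm-like), and -0.10 to 2.75 (ETV5) and -2.27 to 0.14 (FGF4) late over hatched epiblast-like. No paired analysis was possible because the numbers in the titles name single cells and no test was made. With 500 or 2000 variable genes or 6 clusters all 10 cluster calls held, and with 4 clusters 9 did.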

Other observations

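Some immediate early genes, which ERK and other signals switch on within minutes, were high in 1 cell. Hatched cell G-14, which was hypoblast-like, had 2230 RPKM of FOS and 197 of EGR1, the highest values of both. The 4 hypoblast-like cells had 606 ± 1084 RPKM of FOS and 50.9 ± 97.6 of EGR1, and the 3 other than G-14 had means of 64.3 and 2.11. FOS had 265 ± 496 RPKM in the late and 214 ± 185 in the hatched trophectoderm-like cells and 40.3 ± 75.0 in the epiblast-like cells. IER2 had 72.5 ± 70.7 RPKM in the hypoblast-like and 44.5 ± 50.3 in the epiblast-like cells, and IER3 18.6 ± 37.2 and 7.35 ± 17.6. Without the highest cell the hypoblast-like means were 40.9 for IER2 and 0.0299 for IER3. MYC, a growth factor target, had 111 ± 130 RPKM in the epiblast-like, 131 ± 75.3 in the hatched and 15.8 ± 16.7 in the late trophectoderm-like, and 0.0679 ± 0.0556 in the hypoblast-like cells. HRAS had its highest group mean, 262, in the outer middle blastocyst of letter B, against 6.55 in the inner cells.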
